A study of Mus musculus with 6 samples.

Results

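Heat shock chaperones are proteins that bind unfolded or damaged proteins and return them to shape, and their genes include many that cells switch on within minutes of protein stress. The members described here are 10 genes chosen by symbol: Hspa1a, Hspa1b and Hspa8 (HSP70 chaperones), Hsph1 (HSP110), Dnajb1 (an HSP40), Bag3, Hspb1 (a small heat shock protein), Hsp90aa1 (HSP90 alpha), and Hspd1 and Hspe1 (the mitochondrial chaperonin and its partner). All 10 were found among the 18228 genes of the deposited table, and all 10 passed the filter on low counts. RNA was sequenced from the hypothalamus of 3 mice aged 22 months (aged) and 3 mice aged 12 weeks (young). The study looked for hypothalamic predictors of the cognitive decline of ageing. A behavioural test with 5 mice of each age came first, and the sequenced animals were a random draw of 3 from each. The labels give both groups regular light and dark cycles, anaesthesia with sodium pentobarbital and death by dislocation; the head was then put on ice and the tissue kept in liquid nitrogen. The labels used here name no strain, sex, batch or day.

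Each library held 17208291 to 18884403 counted reads. The hypothalamic peptide genes that mark the tissue (Avp, Oxt, Pomc, Hcrt, Pmch, Trh, Ghrh and Agrp) were read in every library. They summed to 1191 to 1290 CPM in aged and 1234 to 1408 CPM in young libraries. The sums hide opposite changes: by the test given below, Avp rose and Hcrt fell, while 6 did not pass. Their log2 fold changes, aged over young, were 0.60 for Avp and -0.82 for Hcrt. Agrp was low, at 0.352 to 5.35 CPM over the 6 libraries. CPM here is a gene's reads as a share of the library total, after scaling by TMM factors, which correct for library makeup. Reads of 4 Y-linked genes (Ddx3y, Eif2s3y, Kdm5d, Uty) summed to 3394 to 3617 per aged library, against 24 to 32 per young library. By these genes the aged mice read as male and the young mice as female. Sex, as read from Y-linked expression, thus divided the libraries as age did, and the part of each in any difference below cannot be told apart. Young replicate 2 was the highest library in markers of cortex and thalamus, neighbouring regions, though not in those of striatum. Slc17a7, a glutamate transporter gene of cortex, had 9.58 to 22.1 CPM in aged libraries. In young replicates 1, 2 and 3 it had 11.3, 173 and 58.5 CPM. Without young replicate 2, 5 of the 10 chaperone genes and 2.09% of all genes tested were called higher in aged hypothalamus by the test given below; with it, 6 and 3.22% were. The part of these markers in the chaperone values was not tested. In bulk tissue, a change in the number of cells of a type and a change in RNA per cell cannot be told apart either.

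In the resting cell, HSP70 and HSP90 chaperones are held to restrain heat shock factor 1 (HSF1), the transcription factor of this response. When unfolded proteins draw the chaperones away, HSF1 forms trimers and binds heat shock elements, runs of inverted GAA repeats, in front of genes such as Hspa1a, Hspa1b, Dnajb1 and Hspb1. Hspa8, Hsp90aa1, Hspd1 and Hspe1 are also made in quantity without stress, and neurons are known for a high threshold of HSF1 activation.

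The stretches in front of 4 genes are shown because they hold the letters of such elements and let the near-identical Hspa1a and Hspa1b be compared. They come from RefSeq on GRCm38.p6, and capitals mark each match to GAANNTTC or TTCNNGAA, the 2 orders of a pair of repeats; each order reads the same on both strands, and matches may overlap. Hspa1a is the minus strand of chr17:34972157-34972406, Hspa1b the minus strand of chr17:34959239-34959488, Hspb1 the plus strand of chr5:135887669-135887918 and Hspe1 the plus strand of chr1:55087998-55088147, each ending at the last base before the annotated start.
Hspa1a: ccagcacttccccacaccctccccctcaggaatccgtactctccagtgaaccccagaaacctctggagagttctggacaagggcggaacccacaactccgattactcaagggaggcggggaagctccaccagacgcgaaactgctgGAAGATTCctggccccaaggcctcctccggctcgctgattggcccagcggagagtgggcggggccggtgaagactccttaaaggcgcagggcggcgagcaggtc
Hspa1b: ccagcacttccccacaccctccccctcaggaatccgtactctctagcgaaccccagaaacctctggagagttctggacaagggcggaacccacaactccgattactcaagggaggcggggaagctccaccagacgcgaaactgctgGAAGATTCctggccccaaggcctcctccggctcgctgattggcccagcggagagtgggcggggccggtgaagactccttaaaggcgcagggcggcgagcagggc
Hspb1: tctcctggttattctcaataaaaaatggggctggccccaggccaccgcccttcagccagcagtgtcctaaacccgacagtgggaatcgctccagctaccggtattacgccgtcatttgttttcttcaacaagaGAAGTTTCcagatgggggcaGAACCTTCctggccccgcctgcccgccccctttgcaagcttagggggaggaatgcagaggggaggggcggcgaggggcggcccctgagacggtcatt
Hspe1: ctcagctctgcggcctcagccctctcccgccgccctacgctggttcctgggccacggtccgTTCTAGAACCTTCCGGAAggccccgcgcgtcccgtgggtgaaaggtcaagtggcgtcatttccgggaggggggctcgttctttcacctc

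Within the 250 bases before the start and 50 after it, Hspa1a and Hspa1b differed at 4 positions, counted from 1 at the 5′ end with the Hspa1a base first: C44T, T47C, T249G and C276T. Their element letters, which begin 104 bases before the start, were identical. Hspb1 had 2 matches, beginning 117 and 97 bases before its start. In Hspe1 the matches overlapped in a run of 18 bases, TTCNNGAANNTTCNNGAA, at chr1:55088059-55088076. Hspd1 lies head to head with Hspe1, and the same 18 bases begin 144 bases before one of its annotated starts, on the other strand. The annotated Hspd1 gene extends further, to chr1:55088243, so these bases lie inside it. It thus overlaps Hspe1, which begins at chr1:55088148. That run of 18 bases stood in 5 of 32851 windows of this length over all genes (0.0152%), with windows of Hspd1 and Hspe1 among the 5. Hsph1 had 3 repeats in a row (TTCNNGAANNTTC) after its start, shown with the bases before them on the minus strand of chr5:149636288-149636317.
Hsph1: gagtaaaatgctgcagaTTCTGGAAAGTTC

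Windows were found for 8 of the 10 genes (Hspa8 and Hsp90aa1 had none in the table used). A pair of repeats in either order stood in 7 of these 8 genes and in 15.1% of all windows. Runs of 3 repeats stood in 3 of the genes (Hsph1, Hspd1 and Hspe1) and in 0.603% of all windows. The 8 genes had 11 windows, and a gene counted if any of its windows matched, so gene counts and window shares are unlike measures. Hspd1 and Hspe1 counted through the same 18 bases, and Hspa1a and Hspa1b through identical letters. The windows of these genes are also among all windows. In Bag3 the pair began 43 bases after the start. The window of Dnajb1 did not hold these letters. These matches describe letters, not binding.

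Of the 10 genes, 6 rose in aged hypothalamus (Hspa1b, Hspa1a, Hspb1, Dnajb1, Bag3 and Hspe1), 0 fell and 4 did not pass (edgeR's quasi-likelihood test, Benjamini-Hochberg adjusted p under 0.05 over 14702 genes). Over all genes tested, 3.22% were called higher and 3.64% lower. The median log2 fold change, aged over young, was 0.81 for the 10 genes and -0.0035 over all genes. Every aged library stood above every young library for 9 of the 10 genes, where the same held for 15.5% of all genes tested. The fold sizes spread widely, from 15.5-fold for Hspa1b to 1.08-fold for Hsp90aa1.

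**Figure D1:**
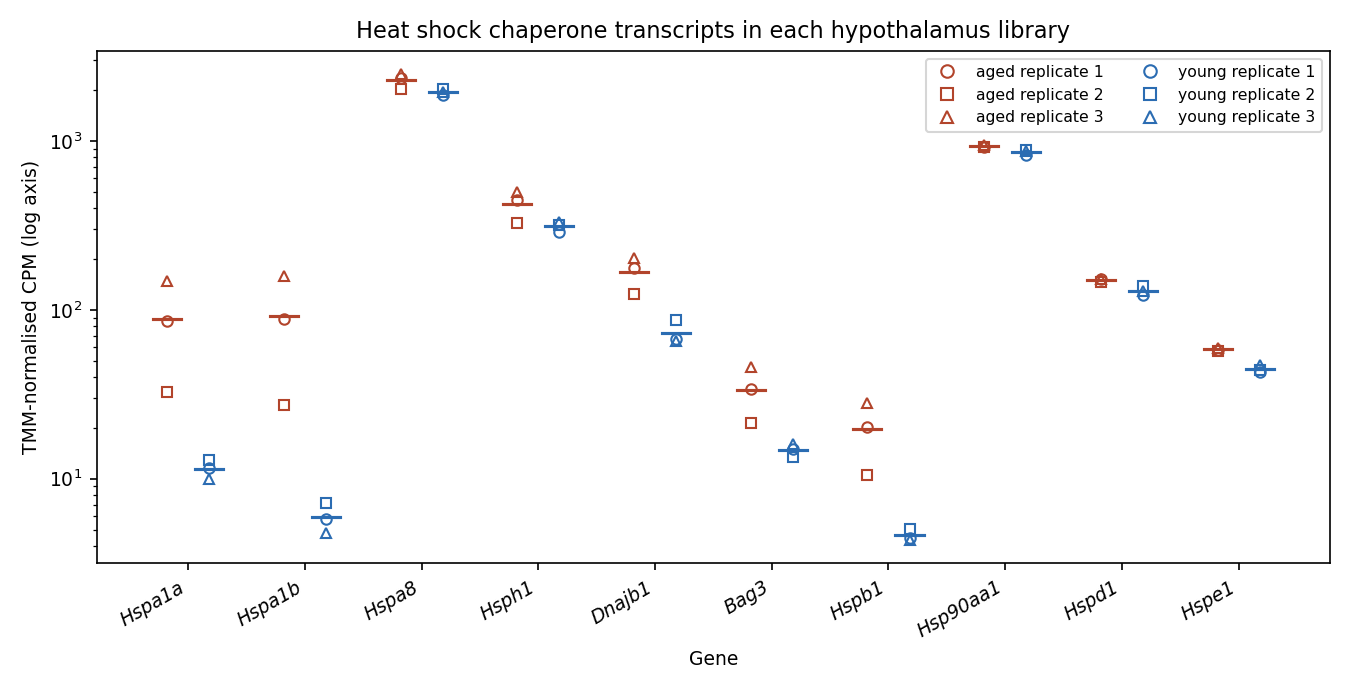
TMM-normalised CPM (log axis) of the 10 heat shock chaperone genes in each library, aged (red) left of young (blue); symbols give the replicate number and bars the mean of 3 libraries. The aged points lie apart for Hspa1a, Hspa1b, Hspb1 and Bag3, with replicate 2 lowest, while the young points lie close together.

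Hspa1a and Hspa1b encode the stress-inducible HSP70, which binds exposed hydrophobic stretches of unfolded proteins. Hspa1b stood at 88.4, 27.5 and 159 CPM in aged replicates 1, 2 and 3, against 5.74, 7.18 and 4.78 CPM in young replicates 1, 2 and 3. The lowest aged library was above the highest young library, and the aged values themselves spanned 5.78-fold. The log2 fold change was 3.95 ± 0.57 (SE; edgeR adjusted p = 0.00719), with a 95% interval of 2.68 to 5.22.

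Hspa1a stood at 85.3, 32.5 and 148 CPM in the aged replicates, against 11.6, 12.8 and 9.90 CPM in the young replicates. The libraries fell in the same order as for Hspa1b within the aged group, and the age groups did not overlap. Hspa1a rose by 2.95 ± 0.46 on the log2 scale (edgeR adjusted p = 0.00947).

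Reads of the pair can be hard to place. Of the 2704 windows of 100 bases in the annotated Hspa1b transcript, 1350 (49.9%) occur letter for letter in the Hspa1a transcript, and how the authors' counting treated such reads is not given in the sources used here. The split between the genes is uncertain to that extent. Their sum is less so if shared reads were given to either gene, but would miss them if they were left out. Together they had 3099, 1154 and 5320 reads in the aged replicates, against 296, 348 and 264 reads in the young replicates. With the pair summed into 1 gene, the log2 fold change was 3.38 ± 0.49 (SE; edgeR adjusted p = 0.00772).

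Per length, Hspa1b was close to Hspa1a in aged and below it in young libraries. The ratio of Hspa1b to Hspa1a in FPKM (reads scaled to gene length and library total) was 1.03, 0.843 and 1.07 in the aged replicates, against 0.493, 0.558 and 0.481 in the young replicates. The groups did not overlap in this ratio, for which no test was run.

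Hspa8 encodes HSC70, the constitutive HSP70, and was the most abundant of the 10 genes per length. It stood at 2357, 2029 and 2488 CPM in the aged replicates, against 1873, 2018 and 1945 CPM in the young replicates. The groups did not overlap, but aged replicate 2 lay close to young replicate 2. The log2 fold change of 0.24 ± 0.08 (SE) did not pass (edgeR adjusted p = 0.0952; 95% interval 0.06 to 0.41), and it passed without aged replicate 2 (0.33, edgeR adjusted p = 0.0136) and in DESeq2 (adjusted p = 0.0449), which called 3.99% of all genes higher.

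The inducible pair was a minor share of HSP70 transcripts at both ages. Hspa1a and Hspa1b made up 5.24%, 2.17% and 8.47% of the FPKM of Hspa1a, Hspa1b and Hspa8 in the aged replicates, against 0.691%, 0.738% and 0.564% in the young replicates. These shares averaged 5.29% ± 3.15 in aged and 0.664% ± 0.0903 in young libraries (SD, n = 3 each). They would be too low if reads shared by the pair were left out of the counts.

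Hsph1 encodes HSP110, which exchanges nucleotide on HSP70 and helps it to break up aggregates. It stood at 445, 326 and 500.1 CPM in the aged replicates, against 287, 318 and 330.3 CPM in the young replicates. Aged replicate 2 fell within the young range, so the groups overlapped for this gene alone among the 10. Scaled by total counts, every aged library stood above every young library for all 10, and for 19.3% of all genes tested. The log2 fold change was 0.44 ± 0.13 (SE; edgeR adjusted p = 0.0752, 95% interval 0.14 to 0.74). Without aged replicate 2 it was 0.61 (edgeR adjusted p = 0.00345), and it also passed in DESeq2 (adjusted p = 0.00616).

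Dnajb1 encodes an HSP40 that hands clients to HSP70 and starts its ATPase cycle. It stood at 177, 124 and 202 CPM in the aged replicates, against 66.8, 86.6 and 65.4 CPM in the young replicates. All aged libraries were above all young ones, and Dnajb1 had the smallest adjusted p of the 10 genes (log2 fold change 1.20 ± 0.17 SE, edgeR adjusted p = 0.00655).

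Bag3 encodes a co-chaperone that links HSP70 and small heat shock proteins to selective autophagy. It stood at 34.1, 21.2 and 45.8 CPM in the aged replicates, against 14.9, 13.4 and 16.1 CPM in the young replicates. The groups did not overlap, and Bag3 rose by 1.18 ± 0.23 on the log2 scale (edgeR adjusted p = 0.0210). The call was lost without any one of 5 libraries (edgeR adjusted p = 0.0567 to 0.0690) and kept without aged replicate 2.

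Hspb1 encodes HSP27, a small heat shock protein that holds unfolded proteins in solution without using ATP. It stood at 20.2, 10.5 and 28.0 CPM in the aged replicates, against 4.45, 5.06 and 4.34 CPM in the young replicates. Even the lowest aged library was above the young ones. The log2 fold change was 2.08 ± 0.31 (SE; edgeR adjusted p = 0.00844).

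Hsp90aa1 encodes the stress-responsive cytosolic HSP90, which matures kinases and steroid receptors. It stood at 918, 915 and 948 CPM in the aged replicates, against 826, 884 and 876 CPM in the young replicates. The groups did not overlap but lay close, and the log2 fold change of 0.11 ± 0.05 (SE) did not pass (edgeR adjusted p = 0.254), with a 95% interval of -0.02 to 0.23. Its constitutive partner Hsp90ab1 had a log2 fold change of 0.11 ± 0.06 (SE; edgeR adjusted p = 0.265). Hsp90aa1 made up 31.9%, 32.6% and 31.6% of the FPKM of both genes in the aged replicates, against 32.2%, 32.0% and 32.1% in the young replicates, so the groups overlapped in this share.

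Hspd1 and Hspe1 encode HSP60 and HSP10, the chaperonin barrel of the mitochondrial matrix and its lid. Hspe1 stood at 58.0, 57.4 and 59.5 CPM in the aged replicates, against 43.1, 44.1 and 47.3 CPM in the young replicates. The aged values lay within a narrow band above the young ones. Hspe1 rose by 0.38 ± 0.07 on the log2 scale (edgeR adjusted p = 0.0147). The call was lost without aged replicate 1, aged replicate 3 or young replicate 1 (edgeR adjusted p = 0.0518 to 0.0676). It was also lost, at 0.24 (edgeR adjusted p = 0.0753), with the trend of counts on gene length removed. The counted length of Hspe1, as implied by counts and FPKM, is short at 768 bases.

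Hspd1 stood at 151, 146 and 153 CPM in the aged replicates, against 122, 139 and 129 CPM in the young replicates. The groups did not overlap, and the log2 fold change of 0.21 ± 0.06 (SE) did not pass (edgeR adjusted p = 0.0786, 95% interval 0.06 to 0.35). Of these neighbouring genes Hspe1 thus passed and Hspd1 did not; the difference between them was not tested.

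**Figure D2:**
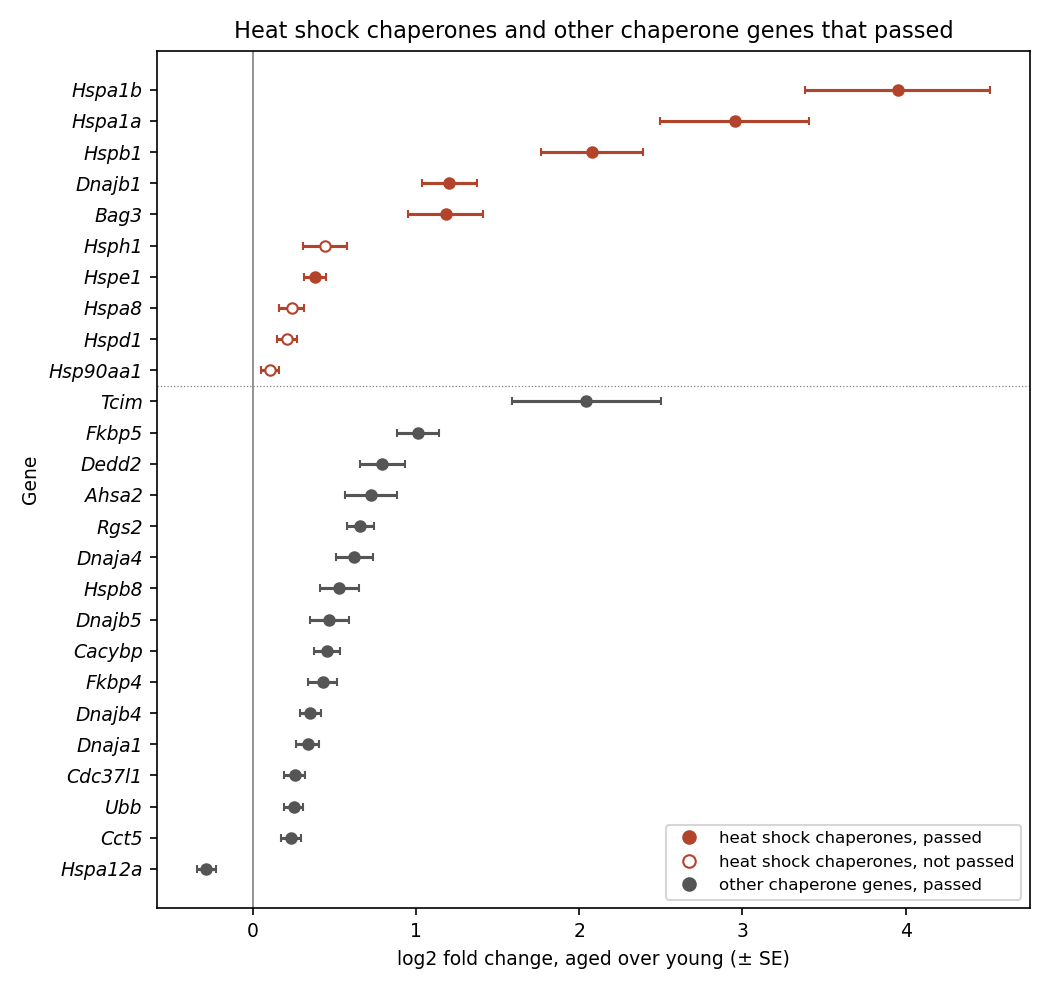
Log2 fold change, aged over young, with SE for the 10 heat shock chaperone genes (red; filled where the adjusted p was under 0.05) above the other chaperone and heat shock genes that passed (grey). Hspa1b, Hspa1a and Hspb1 lead the red genes, and Hspa12a is the 1 grey gene below 0.

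The order of the 10 genes by level per length was much the same at both ages at the top. In aged libraries Hspa8 averaged 1099 ± 106 FPKM and Hsp90aa1 328 ± 6.13 FPKM, and in young libraries they averaged 915 ± 34.5 and 299 ± 12.4 FPKM (SD, n = 3 each). In aged libraries these were followed by Hspe1 (76.6 ± 1.25 FPKM), Hsph1 (66.7 ± 13.6), Hspd1 (58.5 ± 1.03), Dnajb1 (52.4 ± 12.1), Hspa1b (32.8 ± 23.5), Hspa1a (31.9 ± 20.8), Hspb1 (21.9 ± 9.67) and Bag3 (13.1 ± 4.71). Each of these 8 overlapped its neighbour in that order in the range of its libraries. In young libraries the same places were held by Hspe1 (57.8 ± 3.58 FPKM), Hspd1 (49.7 ± 3.18), Hsph1 (48.2 ± 3.87), Dnajb1 (22.3 ± 3.44), Bag3 (5.65 ± 0.589), Hspb1 (5.06 ± 0.378), Hspa1a (4.04 ± 0.471) and Hspa1b (2.08 ± 0.403), and 2 pairs of neighbours overlapped in range, Hspd1 with Hsph1 and Bag3 with Hspb1. Hspa1b was thus the lowest of the 10 in young libraries, and in aged libraries its mean was above those of 3 others.

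**Figure D3:**
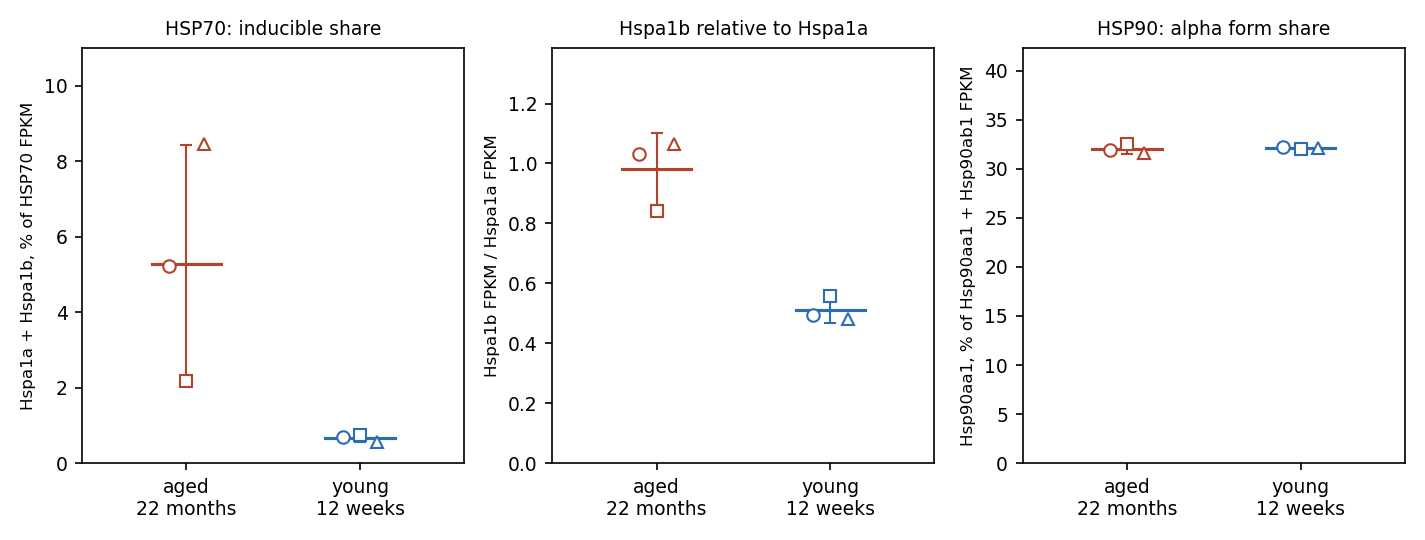
FPKM-based shares and ratios per library (aged red, left; young blue, right; circle, square and triangle for replicates 1, 2 and 3), with the mean and SD of 3 libraries. The inducible share of HSP70 transcripts averaged 5.29% in aged and 0.664% in young libraries, while the Hsp90aa1 share of cytosolic HSP90 ran from 31.6% to 32.6% over all 6.

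The 3 aged mice differed from one another in these genes. Aged replicate 2 also stood apart beyond these genes. Over genes with enough reads, the ratio of chi-square to degrees of freedom was 12.2 and 10.2 against aged replicates 1 and 3. Between aged replicates 1 and 3 it was 4.05, and for pairs of young libraries it was 5.92 to 11.4. Aged replicate 2 had the lowest CPM of the aged libraries in 10 of 10 genes and aged replicate 3 the highest in 10 of 10, an order found in 18.3% of all genes tested. Scaled by total counts, aged replicate 2 was lowest in 8 of 10 and aged replicate 3 highest in all 10, and both held in 2505 of the 14702 genes tested. With a small constant added to each CPM, the highest aged value exceeded the lowest by a median of 1.58-fold over the 10 genes. Over all genes the median was 1.14-fold. Among young libraries these medians were 1.15-fold and 1.14-fold. Without that constant, the aged range was widest for Hspa1b (5.78-fold) and Hspa1a (4.57-fold), followed by Hspb1 (2.65-fold) and Bag3 (2.15-fold). It was 1.04-fold for Hspe1 and Hsp90aa1.

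Relative to the young mean, aged replicate 2 stood at 4.65-fold for Hspa1b, 2.84-fold for Hspa1a, 2.28-fold for Hspb1, 1.70-fold for Dnajb1 and 1.43-fold for Bag3. Aged replicate 3 stood at 26.9-fold for Hspa1b, 13.0-fold for Hspa1a, 6.06-fold for Hspb1, 2.77-fold for Dnajb1 and 3.09-fold for Bag3. The mouse with the weakest difference thus still lay above the young range for these 5 genes. Without aged replicate 2, 8 of the 10 genes were called, where 6.08% of all genes were called higher; without aged replicate 1 or 3, 4 were called, where 1.0% and 0.64% of all genes were. Without young replicate 1, 4 were called, and without young replicate 2 or 3, 5 were, where 0.957%, 2.09% and 1.22% of all genes were called higher.

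Astrocyte markers also set aged replicate 2 apart. Aqp4, Gja1, Slc1a3, Aldh1l1 and Slc1a2 summed to 2254, 1522 and 2243 CPM in aged replicates 1, 2 and 3, against 2612 to 2937 CPM in young libraries, and 2 of the 5 fell (Aqp4 and Slc1a2). The part of this in the chaperone values was not tested.

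**Figure D4:**
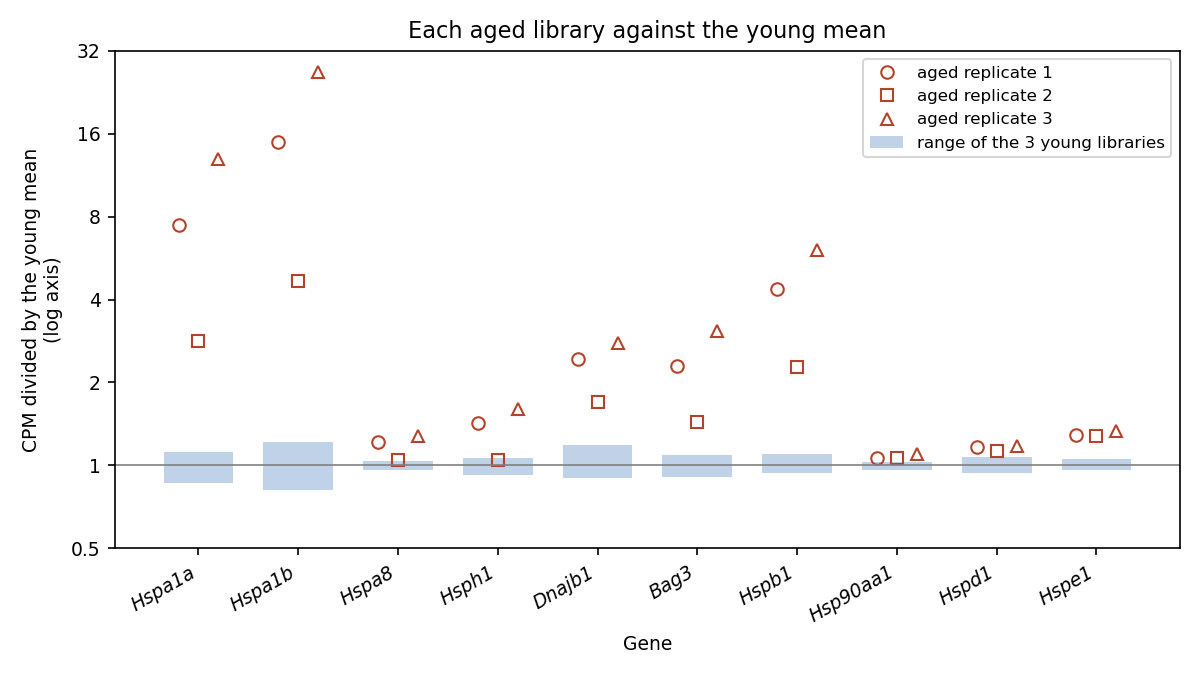
CPM of each aged library divided by the young mean (log axis) for the 10 heat shock chaperone genes; red symbols are the 3 aged libraries and blue bands the range of the 3 young libraries. Replicate 3 is highest and replicate 2 lowest for each gene, and replicate 2 falls within the blue band for Hsph1.

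Around these 10 genes, 87 other chaperone and heat shock genes were examined, of which 82 could be tested. Of these, 15 rose, 1 fell and 66 did not pass, with a median log2 fold change of 0.14 (against -0.0035 over all genes, 3.22% of which were called higher). Single libraries moved the count of genes that rose: 26 passed without aged replicate 2, 2 without aged replicate 1, aged replicate 3 or young replicate 1, and 9 and 3 without young replicates 2 and 3.

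Among HSP90 co-chaperones and partners, 5 of 14 rose and 0 fell. Fkbp5, an immunophilin that glucocorticoids also induce, stood at 51.2, 37.1 and 46.8 CPM in the aged replicates, against 21.6, 25.2 and 20.1 CPM in the young replicates (log2 fold change 1.01 ± 0.13 SE, edgeR adjusted p = 0.00468). Ahsa2, a relative of the HSP90 ATPase activator, rose by 0.72 ± 0.16, Cacybp by 0.45 ± 0.08, Fkbp4, an immunophilin of steroid receptor complexes, by 0.43 ± 0.09 and Cdc37l1 by 0.25 ± 0.06 on the log2 scale.

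Of 15 other HSP40 genes, 4 rose and 0 fell. These were Dnaja4 (log2 fold change 0.62 ± 0.11 SE), Dnajb5 (0.47 ± 0.12), Dnajb4 (0.35 ± 0.07) and Dnaja1 (0.33 ± 0.07), with edgeR adjusted p of 0.0176, 0.0486, 0.0186 and 0.0279. Dnaja4 stood at 59.8, 44.9 and 61.7 CPM in the aged replicates, against 34.6, 37.1 and 36.4 CPM in the young replicates, and the groups did not overlap.

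Of 4 tested small heat shock genes beside Hspb1, Hspb8, which works with Bag3, rose by 0.53 ± 0.12 on the log2 scale (edgeR adjusted p = 0.0331). Cryab, alpha-B crystallin, did not pass (0.21 ± 0.12, edgeR adjusted p = 0.284). Among 9 other HSP70 and HSP110 genes, 0 rose and Hspa12a, a distant HSP70 relative, fell by 0.29 on the log2 scale (edgeR adjusted p = 0.0228). Of 8 subunits of the cytosolic chaperonin, Cct5 rose by 0.23 ± 0.06 (edgeR adjusted p = 0.0480).

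A further list held 11 genes taken as stress-induced, and 4 of them rose: Tcim (log2 fold change 2.04 ± 0.46 SE), Dedd2 (0.79 ± 0.14), Rgs2, a regulator of G protein signalling (0.66 ± 0.08), and Ubb, a polyubiquitin gene (0.25 ± 0.06). Tcim was low, at 0.556 to 4.48 CPM over the 6 libraries.

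In 3 lists no gene passed in edgeR. These were the 4 tested heat shock factor genes, the 9 BAG and exchange factor genes and the 8 other mitochondrial chaperones and proteases, with 1, 1 and 2 genes at an unadjusted p under 0.05. Hsf1 itself stood at 78.6, 60.7 and 79.4 CPM in the aged replicates, against 69.2, 52.9 and 68.1 CPM in the young replicates; the groups overlapped, and it did not pass (edgeR adjusted p = 0.346). Hsf4 came nearest (0.33 ± 0.09, edgeR adjusted p = 0.0516), followed by Hsf2 (0.20 ± 0.09, edgeR adjusted p = 0.197). In the BAG list the smallest p were those of Bag2 (0.34 ± 0.09, edgeR adjusted p = 0.0599) and Stub1, a ubiquitin ligase of HSP70 clients (0.13 ± 0.06, edgeR adjusted p = 0.206). In the mitochondrial list they were those of Clpp (0.15 ± 0.06, edgeR adjusted p = 0.177) and Lonp1 (0.16 ± 0.07, edgeR adjusted p = 0.178), both proteases of the matrix.

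Acute response genes stood higher in the same aged libraries. The list is mostly of transcription factors, but Dusp1 in it encodes a phosphatase. Of 12, 7 rose and 0 fell (Atf3, Fosl2, Klf4, Fosb, Nr4a1, Junb and Egr1), and their summed level was 748, 732 and 1029 CPM in the aged replicates, against 419, 524 and 384 CPM in the young replicates. Aged replicate 3 was the highest aged library in 10 of the 12 genes, where it was so in 29.0% of all genes tested. The lowest was aged replicate 2 in 6 genes and aged replicate 1 in the other 6, against 39.2% and 31.0% of all genes. Among 12 endoplasmic reticulum chaperone genes, Hspa5, the HSP70 of that compartment (0.45 ± 0.09, edgeR adjusted p = 0.0227), and Creld2 (0.64 ± 0.12, edgeR adjusted p = 0.0178) rose and 0 fell; 0 passed without aged replicate 1, aged replicate 3 or young replicate 1, 1 without young replicate 2 or 3, and 5 without aged replicate 2. Set against these 7 of 12 and 2 of 12, 3.22% of all genes tested were called higher. The part of these groups in the chaperone values was not tested.

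Profiles most like those of Hspa1b and Hsph1 were sought among 13309 other genes with a mean log2 CPM of at least 1. Likeness was the smallest root mean square difference over the 6 libraries in log2 CPM relative to each gene's young mean. A small constant was added to CPM before logs in both steps. It shrinks the fold changes of genes with low CPM, so the distances and their order depend on it. Nearest to Hspa1b were Atf3 (0.58), Maff (0.59), Tmem252 (0.79), Nr4a3 (0.81) and Gem (0.92), while Hspa1a lay at 0.63. Atf3, a transcription factor of the stress response, stood at 11.5, 7.32 and 14.7 CPM in the aged replicates. In the young replicates it stood at 0.938, 0.747 and 0.779 CPM, and Tmem252 at 0.410, 0.287 and 0.445 CPM. Both genes reached the level needed of a candidate only through their aged libraries, so their likeness to Hspa1b is in part set by that choice.

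Nearest to Hsph1 were Chordc1, an HSP90-binding protein gene (0.044), Irak2 (0.061), Nfe2l2, which encodes the oxidative stress factor NRF2 (0.066), Med20 (0.069) and Cdo1 (0.075). Chordc1 stood at 71.6, 55.3 and 78.1 CPM in the aged replicates, against 47.9, 52.6 and 54.5 CPM in the young replicates. Like Hsph1, these 5 genes did not pass in edgeR (adjusted p = 0.0619 to 0.0862).

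Markers of cell types and regions did not all move alike. Of 61 tested markers of 13 cell types and neighbouring regions, 1 rose (Avp) and 11 fell. Over all genes tested, 3.22% were called higher and 3.64% lower. Hcrt and P2ry12, a microglia marker, were among those that fell. Vessel cells are a known site of Hspb1. Of 5 endothelial markers, Cldn5 and Kdr fell, while Pecam1, Flt1 and Ly6c1 did not pass (log2 fold changes -0.03, -0.01 and 0.35). The list summed to 142 to 166 CPM in aged and 156 to 193 CPM in young libraries. Of 5 pericyte and smooth muscle markers, Pdgfrb and Vtn fell, with sums of 134 to 165 CPM in aged and 197 to 227 CPM in young libraries. Red blood cell genes summed to 251, 227 and 79.4 CPM in the aged replicates, against 102, 91.0 and 183 CPM in the young replicates, and 0 of 5 passed in edgeR (0 at an unadjusted p under 0.05). Of 4 markers of cortex, Neurod6 and Cux2 fell, with sums of 69.6, 83.9 and 75.1 CPM in the aged replicates, against 90.4, 275 and 135 CPM in the young replicates. Of 3 markers of thalamus, Tcf7l2 fell, with sums of 55.3, 39.4 and 52.4 CPM in the aged replicates, against 102, 148 and 44.0 CPM in the young replicates. Young replicate 2 was the highest library in both sums. Of 4 markers of striatum, 0 passed. They summed to 219, 152 and 171 CPM in the aged replicates, against 159, 155 and 174 CPM in the young replicates, with aged replicate 1 highest. No defining marker in these lists was at 0 in all libraries, and their part in the chaperone values was not tested.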

How the data were processed

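Per the labels' protocols, the mirVana kit was used for total RNA and the TruSeq Stranded mRNA kit for the libraries. The authors deposited whole-number read counts per gene, without normalization, and FPKM for the same genes, per the file headers; FPKM equals counts over gene length and library total in 18228 of 18228 genes (relative tolerance 1e-06). The submitters' processing notes list Trimmomatic, HISAT2, Cufflinks, HTSeq, DESeq and GRCm39 with no versions. How counting treated strand and multiply matching reads is not given in the sources used here. Mice were grouped by age; each library is 1 mouse, and replicates differed by more than sampling noise (ratios of chi-square to degrees of freedom ran from 4.05 to 12.2).

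The filterByExpr rule (at least 10 reads in enough libraries and 15 in total) left 14702 genes with 99.9% of counts, which were tested with edgeR 4.0.16 in R 4.3.3: TMM scaling, quasi-likelihood test, no covariate, adjusted over all genes. The script was checked on simulated data. Alternatives were other scalings and filters, DESeq2 1.42.0, limma 3.58.1 (voom, and trend on log2(FPKM + 1) and log2(FPKM + 0.1)), the replicate number as a block, a gene length trend removed, Hspa1a and Hspa1b summed, and leaving out each library. Intervals use the SE implied by the test. Named genes are the 10 members; list genes that passed, or where none passed the 2 of smallest p; and the 5 nearest profiles to Hspa1b and Hsph1 among genes with a mean log2 CPM of at least 1. Cryab, Hsf1 and Hsp90ab1 were named after their values were seen. The members, lists and tests were chosen with earlier results of these data known. Promoter sequences are RefSeq's on GRCm38.p6, matched by symbol for 8 of 10 genes; those coordinates apply to that build only.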

Additional observations from a re-analysis of the deposited data

How the results depend on the processing

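Of the 17 alternatives, 17 kept the direction of all 10 genes, and the calls of Hspa1b, Hspa1a, Dnajb1 and Hspb1 held in all of them, the summed pair standing in for Hspa1a and Hspa1b in one (log2 fold changes 3.17 to 4.40, 2.37 to 3.38, 1.05 to 1.39 and 1.74 to 2.39). The calls of Bag3 and Hspe1 were lost in 5 and 4 alternatives. Leaving out single libraries, Bag3 ranged from 0.91 to 1.44, Hspe1 from 0.36 to 0.43, Hspa8 from 0.18 to 0.33 and Hsph1 from 0.31 to 0.61. With the gene length trend removed Hspe1 was 0.24 and not called. DESeq2 also called Hspa8 (0.24) and Hsph1 (0.45), and so did edgeR without aged replicate 2. Hsp90aa1 and Hspd1 passed in none of the 17.

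The count of the 10 genes called higher ran from 4 to 8 without single libraries. That of other chaperone genes called higher ran from 2 to 26 without single libraries, and of those called lower from 0 to 2; DESeq2 and the replicate block called 2 lower. Over all genes, 95 to 901 were called higher and 55 to 732 lower without single libraries. Those called lower were 293 on log2(FPKM + 1), 303 on log2(FPKM + 0.1) and 349 with the gene length trend removed, against 535. The causes were not tested. Leaving out a library leaves 5 and fewer degrees of freedom by construction.

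Replicate numbers did not pair the libraries (correlations of deviations 0.095, 0.037 and -0.14 for numbers 1, 2 and 3). With the replicate block, 6 of the 10 genes were called, as without it, and 523 genes were higher and 667 lower. Alternatives for the acute response and endoplasmic reticulum lists were added after seeing the data.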
